A study of Mus musculus with 4 samples.

Results

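The 10 genes described here encode the muscle side of the neuromuscular junction: the acetylcholine receptor subunits Chrna1, Chrnb1, Chrnd, Chrne and Chrng, and the organisers Lrp4, Musk, Dok7, Rapsn and Colq. They were taken by gene symbol, by a rule that used no measured value, from 40137 gene units in the deposited tables. Earlier results of these data were known when they were chosen. Their RNA was compared between thigh skeletal muscle of wild-type male C57BL/6J mice aged 28 months (3 libraries, replicates 1 to 3) and aged 18 months (1 library), with no treatment in either group. The sequencing was made for a study of alternative splicing with age that also used exon arrays. The labels do not say whether the 28-month libraries came from separate animals, so p-values measure the spread between these libraries, which may be technical.

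At the junction, agrin released by the motor nerve binds Lrp4 on the muscle fibre, which activates the receptor kinase MuSK with the help of the adaptor Dok7. Rapsyn, the product of Rapsn, then clusters acetylcholine receptors under the nerve terminal, and the collagen tail ColQ anchors acetylcholinesterase in the synaptic cleft. Fetal receptors contain the gamma subunit, Chrng, in the place that the epsilon subunit, Chrne, takes in adult muscle. In denervated rodent muscle, receptor subunits and Musk are transcribed along the whole fibre and Chrng is made again, under myogenic factors that bind E-boxes.

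Because receptor genes share such control elements, the 250 bases before the RefSeq transcription start (GRCm38.p6) are shown for 4 subunit genes, 5′ to 3′ on the gene's own strand. Capitals mark E-boxes (CANNTG, a palindromic pattern, so that both strands are covered) and the N-box (CCGGAA, searched on both strands), which in the epsilon gene is known as a site for the ETS factor GABP. The RefSeq start sites can lie inside the longer GENCODE gene models.
Chrna1, chr2:73580339-73580588 (- strand): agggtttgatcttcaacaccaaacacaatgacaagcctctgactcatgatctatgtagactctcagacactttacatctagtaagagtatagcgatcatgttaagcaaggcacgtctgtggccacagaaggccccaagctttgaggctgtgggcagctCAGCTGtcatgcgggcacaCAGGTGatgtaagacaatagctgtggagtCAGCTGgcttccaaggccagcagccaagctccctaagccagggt
Chrnb1, chr11:69795938-69796187 (- strand): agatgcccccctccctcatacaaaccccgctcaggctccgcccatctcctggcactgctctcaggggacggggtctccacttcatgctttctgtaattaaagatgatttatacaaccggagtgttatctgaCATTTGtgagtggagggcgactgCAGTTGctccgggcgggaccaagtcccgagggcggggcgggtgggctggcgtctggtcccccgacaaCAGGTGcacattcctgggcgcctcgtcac
Chrne, chr11:70619195-70619444 (- strand): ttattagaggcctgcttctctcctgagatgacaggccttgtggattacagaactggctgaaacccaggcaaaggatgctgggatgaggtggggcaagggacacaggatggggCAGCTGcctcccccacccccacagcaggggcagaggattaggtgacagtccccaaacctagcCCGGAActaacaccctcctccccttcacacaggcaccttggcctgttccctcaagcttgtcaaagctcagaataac
Chrng, chr1:87205561-87205810 (+ strand): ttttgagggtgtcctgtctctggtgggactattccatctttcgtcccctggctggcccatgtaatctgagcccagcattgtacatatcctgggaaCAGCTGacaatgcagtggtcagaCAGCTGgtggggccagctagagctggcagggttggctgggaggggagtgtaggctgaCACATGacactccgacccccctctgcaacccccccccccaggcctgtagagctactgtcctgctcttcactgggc

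Chrna1, Chrnb1 and Chrng each held 3 E-boxes in this window and Chrne held 1. The E-box form CAGCTG, itself a CANNTG match, occurred at 2 places in Chrna1, at 2 in Chrng, at 1 in Chrne and at 0 in Chrnb1. Chrne alone among these 4 held an N-box, from base -76 to base -71 relative to the start, and it overlapped no E-box. Promoter sequences were at hand for 6 of the 10 genes, of which the other two were Musk, with 3 E-boxes, and Dok7, with 1 E-box before one start and 0 before its other start. Of 32851 promoters of the same length, 66.2% held CANNTG, 13% held CAGCTG and 12% held CCGGAA, so that an E-box match is common. These letter matches are not evidence of binding.

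In the GENCODE M21 annotation (GRCm38), Chrna1 (ENSMUSG00000027107, 9 exonic bins, chr2:73563215-73580338, - strand), Rapsn (ENSMUSG00000002104, 13 bins, chr2:91035620-91045729, + strand) and Lrp4 (ENSMUSG00000027253, 46 bins, chr2:91457511-91513779, + strand) lie on chromosome 2. Chrnd (ENSMUSG00000026251, 16 bins, chr1:87190607-87200070) and Chrng (ENSMUSG00000026253, 21 bins, chr1:87204657-87212694) are neighbours on the + strand of chromosome 1. Chrnb1 (ENSMUSG00000041189, 18 bins, chr11:69784036-69795943) and Chrne (ENSMUSG00000014609, 19 bins, chr11:70614883-70619216) are both on the - strand of chromosome 11. Musk (ENSMUSG00000057280, 23 bins, chr4:58285960-58374303) and Dok7 (ENSMUSG00000044716, 17 bins, chr5:35056766-35087839) are on the + strand, and Colq (ENSMUSG00000057606, chr14:31523082-31591343) on the - strand. A bin is a stretch of exon between annotated exon edges, and counts per bin are what the tables hold.

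Library totals were 67279205 to 76163175 counts at 28 months and 65780464 counts at 18 months. Skeletal muscle genes were abundant in every library: the summed level of 10 fast-fibre markers, in CPM (counts relative to the library total, scaled by TMM factors), was 191388, 97200 and 198600 CPM in 28-month replicates 1, 2 and 3, against 110060 CPM at 18 months, with none of the 10 at 0. The extraction text in the labels describes epidermal cells, but 7 keratinocyte markers summed to only 15.6, 12.8 and 18.2 CPM at 28 months, against 16.3 CPM at 18 months, with Krt5 and Ivl at 0 in all libraries. Replicate 2 stood apart from the other 28-month libraries, with a chi-square over degrees of freedom of 603 and 571 from replicates 1 and 3. The value was 77.0 between those 2, and 546 between replicate 2 and the 18-month library. Replicates 1 and 3 were themselves at 517 and 505 from the 18-month library, so that they were the only close pair. Values are therefore given with and without replicate 2. With 1 library at 18 months, its spread was assumed to equal that at 28 months.

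None of the 9 junction genes with enough counts passed the edgeR test between 28 and 18 months at an adjusted p under 0.05 (0 of 9, against 0% of all 15376 genes tested). At an unadjusted p under 0.05 the count was also 0 of 9, against 4.9% of all genes, and DESeq2 called 0 of 9, against 0.202%. Log2 differences (28 minus 18 months) lay above 0 for 6 genes and below 0 for 3, with a median of 0.13 beside 0.06 over all genes. These counts take the unit shared by Colq and Hacl1 as Colq; with the bins assigned to Colq alone, 5 lay above 0 and 4 below, the median was 0.07, and 3 of 9 lay outside the 28-month range. In 2 genes or units, Chrne and the one that holds Colq, all 28-month libraries lay above the 18-month library, and in 2, Dok7 and Lrp4, all lay below, which is 4 of 9 outside the 28-month range. Over all genes 51.8% lay outside it (25.4% with all 28-month libraries above and 26.4% with all below), so this share is near the background. In bulk tissue, fewer cells of a type and less RNA per cell cannot be told apart.

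**Figure D1:**
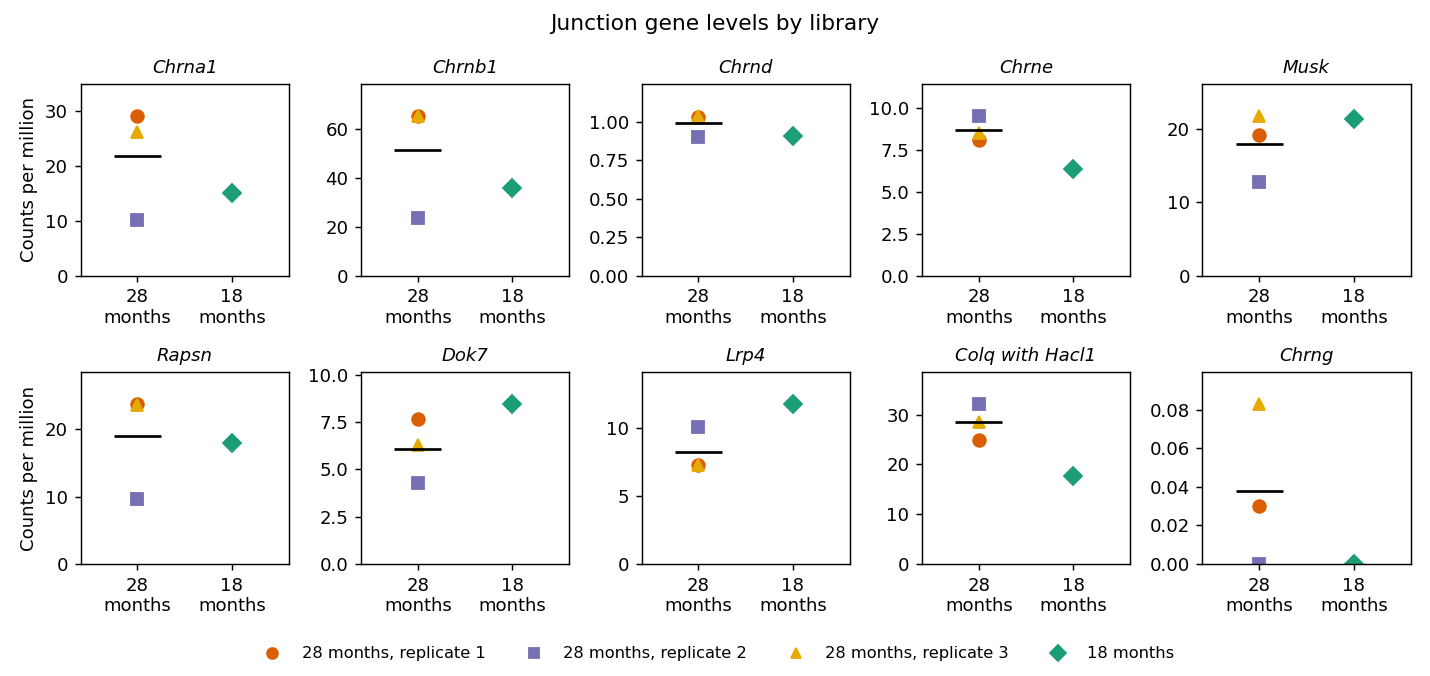
Level in CPM (y axis, from 0, a scale for each gene) of the 10 genes in the 3 libraries at 28 months (left) and the 1 library at 18 months (right); the bar is the 28-month mean and Colq is shown as the unit it shares with Hacl1. Replicate 2 (squares) is the lowest 28-month library for Chrna1, Chrnb1, Chrnd, Rapsn, Musk and Dok7 and the highest for Chrne, Lrp4 and the Colq unit.

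Of the receptor subunits, Chrna1, which carries the main acetylcholine-binding face, had 29.1, 10.1 and 26.1 CPM in 28-month replicates 1, 2 and 3, against 15 CPM at 18 months. Replicates 1 and 3 were thus above the 18-month library and replicate 2 below it, so that the groups overlapped, with a 28-month mean of 21.8 ± 10.2 CPM (SD, n = 3). The log2 difference was 0.54 ± 0.63 (SE, edgeR adjusted p = 0.899). Chrnb1, the beta subunit through which the receptor is tied to rapsyn, had its libraries placed alike around the 18-month value, with 65, 23.3 and 65.3 CPM at 28 months, against 35.9 CPM at 18 months. Its mean at 28 months was 51.2 ± 24.1 CPM (SD, n = 3) and its log2 difference was 0.51 ± 0.64 (SE, edgeR adjusted p = 0.905).

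The ratio of Chrna1 to Chrnb1 counts varied far less than either level: it was 0.447, 0.433 and 0.399 at 28 months and 0.417 at 18 months. Chrne behaved otherwise, and the ratio of Chrne to Chrnb1 counts was 0.125, 0.41 and 0.131 at 28 months and 0.177 at 18 months, with replicate 2 the highest. These ratios compare counts of genes of different length, so only their change between libraries is read.

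Without replicate 2, Chrna1 and Chrnb1 rose at 28 months: the log2 difference was 0.90 ± 0.16 for Chrna1 (SE, edgeR adjusted p = 0.0277) and 0.88 ± 0.15 for Chrnb1 (SE, edgeR adjusted p = 0.0246). These were 2 of 9 tested members (22.2%), both higher, where 11.9% of 15133 genes were called (7.52% higher and 4.37% lower). The spread in that fit came from 2 libraries alone, which were the only close pair. The fast-fibre markers moved in the same direction between libraries, with 6 of the 10 called higher in the same fit and a list median of 0.72 on the log2 scale. Their summed level at 28 months then ranged between 191388 and 198600 CPM, against 110060 CPM at 18 months, and their part in the Chrna1 and Chrnb1 values was not tested.

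**Figure D2:**
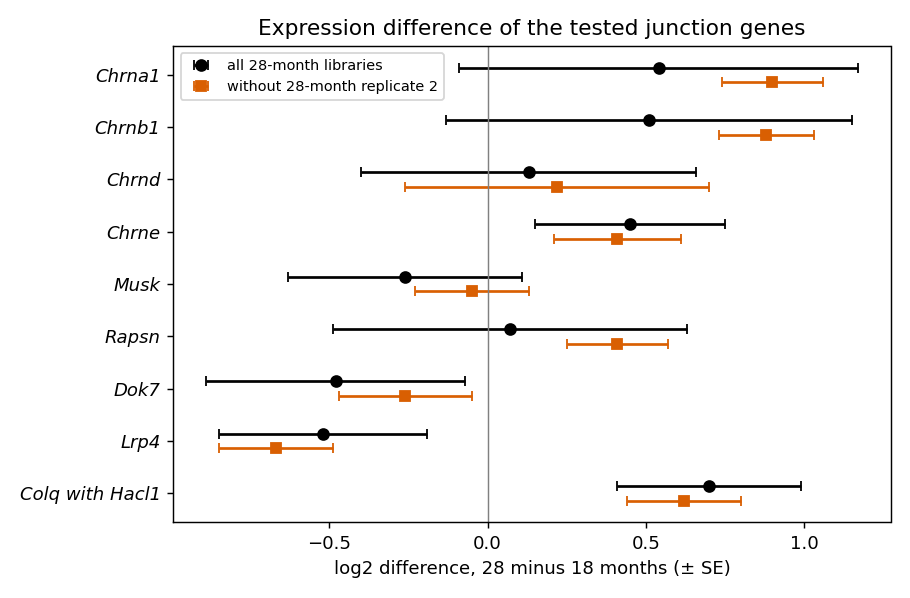
Log2 difference in expression, 28 minus 18 months (x axis), with its standard error as bars, for the 9 tested genes and units; circles use all 28-month libraries and squares leave out replicate 2. Only the squares of Chrna1 (0.90) and Chrnb1 (0.88) passed the adjusted threshold.

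The adult subunit Chrne had 8.1, 9.57 and 8.53 CPM in the 28-month libraries and 6.37 CPM in the 18-month library. All 28-month libraries were above it, with a mean of 8.73 ± 0.753 CPM (SD, n = 3), but the difference did not pass the test (log2 0.45 ± 0.30 SE, edgeR adjusted p = 0.859; 0.41 ± 0.20 and 0.228 without replicate 2). The delta subunit Chrnd was counted 69, 88 and 63 times at 28 months and 59 times at 18 months, or 1.03, 0.902 and 1.04 CPM against 0.906 CPM. Its groups overlapped and its log2 difference of 0.13 ± 0.53 (SE, edgeR adjusted p = 0.971) was 0.22 ± 0.48 without replicate 2 (edgeR adjusted p = 0.79) and -0.13 when the most counted bin stood for the gene.

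Chrng, the fetal subunit, was at or close to 0 in every library, with 2, 0 and 5 counts at 28 months and 0 counts at 18 months, too few to test. Counts fell in 4 of its 21 bins. As a share of the Chrng and Chrne counts together, Chrng was 0.368% (exact 95% binomial interval 0.0446 to 1.32) in 28-month replicate 1 and 0.962% (0.313 to 2.23) in replicate 3. In replicate 2 the count of 0 allows a share of up to 0.322% by the limit of 3 counts (0.395% by the exact interval), and in the 18-month library up to 0.723% (0.885% by the exact interval). No library's interval reached above 2.23%, and no difference between ages was detectable at this depth. Intervals and limits, here and below, cover counting error only. They take each count as a separate fragment, although a fragment can count in several bins, and so can be too narrow.

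Lrp4, the agrin receptor, had 7.34, 10.1 and 7.29 CPM at 28 months, against 11.8 CPM at 18 months. All 28-month libraries lay below the 18-month library, and the log2 difference was -0.52 ± 0.33 (SE, edgeR adjusted p = 0.859). Without replicate 2 it was -0.67 ± 0.18 (SE, edgeR adjusted p = 0.0667). When the most counted bin, in which a fragment counts at most once, stood for each gene and replicate 2 was left out, Lrp4 passed at -0.91 (edgeR adjusted p = 0.0431), in a fit where 14.2% of all genes were called. That bin is the last one of Lrp4, whose share of Lrp4 counts was itself smaller in each 28-month library, with the shift in count positions described below.

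The kinase gene Musk had 19.1, 12.8 and 21.8 CPM at 28 months, against 21.4 CPM at 18 months. Its groups overlapped and its log2 difference of -0.26 ± 0.37 (SE, edgeR adjusted p = 0.913) was close to 0 without replicate 2, at -0.05 ± 0.18 (SE, edgeR adjusted p = 0.883). Dok7, the adaptor that activates MuSK from inside the fibre, had 7.64, 4.29 and 6.31 CPM at 28 months, each below the 8.45 CPM at 18 months. Its log2 difference was -0.48 ± 0.41 (SE, edgeR adjusted p = 0.877), and -0.26 ± 0.21 without replicate 2 (edgeR adjusted p = 0.448).

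Rapsn, the receptor clustering gene, had 23.7, 9.61 and 23.5 CPM at 28 months, against 18 CPM at 18 months, so that replicate 2 alone lay below the 18-month library, as for Chrna1 and Chrnb1. The log2 difference was 0.07 ± 0.56 (SE, edgeR adjusted p = 0.982). It was 0.41 ± 0.16 without replicate 2 (edgeR adjusted p = 0.135), and it was below 0 without replicate 1 (-0.12) or without replicate 3 (-0.11). An antisense gene, Gm13778, overlaps its last 2 bins and was counted in its own unit 54, 24 and 33 times at 28 months and 31 times at 18 months. Reads of the 2 strands cannot be told apart there, since the strand setting was not given.

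Colq shares a deposited unit of 67 bins with its neighbour Hacl1, a peroxisomal lyase gene, so its level could not be read directly. The joint unit had 24.8, 32.1 and 28.6 CPM at 28 months, all above the 17.6 CPM at 18 months, with a log2 difference of 0.70 ± 0.29 (SE, edgeR adjusted p = 0.859) and of 0.62 ± 0.18 without replicate 2 (edgeR adjusted p = 0.0726). When the unit was divided after the first 26 bins, the number that GENCODE M21 gives for Colq, those bins held 188, 438 and 138 counts at 28 months and 220 counts at 18 months. Their level, 2.82, 4.49 and 2.29 CPM against 3.38 CPM, overlapped between groups, with a log2 difference of -0.08 ± 0.51 (SE, edgeR adjusted p = 0.98; -0.39 ± 0.31 and 0.442 without replicate 2). The other 41 bins had 22, 27.6 and 26.3 CPM at 28 months, all above the 14.2 CPM at 18 months, so that the height of the joint unit came from bins after the M21 number for Colq. This division was added after the values were seen, and bin positions in the unit could not be checked.

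Levels of different genes were compared per length, as the median CPM per kilobase over coding bins of 100 to 250 bases found in every coding transcript. Chrnb1 was highest, with 33.1, 11.4 and 35 CPM per kilobase at 28 months and 17.5 at 18 months (7 bins), and Chrna1 followed with 17.7, 6.17 and 15.1 at 28 months and 8.56 at 18 months (6 bins). Rapsn (1 bin) stood at 13.7, 4.67 and 12.1 at 28 months and 8.52 at 18 months. The order Chrnb1, Chrna1, Rapsn, Musk, Chrne, Lrp4 and Chrnd held in 28-month replicates 1 and 3 and in the 18-month library, while in replicate 2 Chrne, at 6.62, came second after Chrnb1.

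Musk had 7.66, 5.01 and 8.23 CPM per kilobase at 28 months and 6.54 at 18 months over 10 bins, and Chrne had 5.32, 6.62 and 4.39 at 28 months and 4.1 at 18 months over 8 bins. Musk was thus above Chrne in 28-month replicates 1 and 3 and at 18 months, but below it in replicate 2. No order of these neighbours held in every library (means at 28 months 6.97 ± 1.72 and 5.44 ± 1.12 CPM per kilobase, SD, n = 3). Within libraries the Chrna1 level was 1 to 1.32 times that of Rapsn, which rests on 1 bin, and 0.431 to 0.541 of the Chrnb1 level. Lrp4, at 0.83, 1.5 and 1.05 at 28 months and 1.16 at 18 months, was much lower. Chrnd was lower still, at 0.378, 0.446 and 0.531 CPM per kilobase at 28 months and 0.279 at 18 months, and the Chrna1 level was 13.8 to 46.8 times the Chrnd level within libraries. The 2 such bins of Chrng were at 0, and Dok7 and Colq had no such bin.

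**Figure D3:**
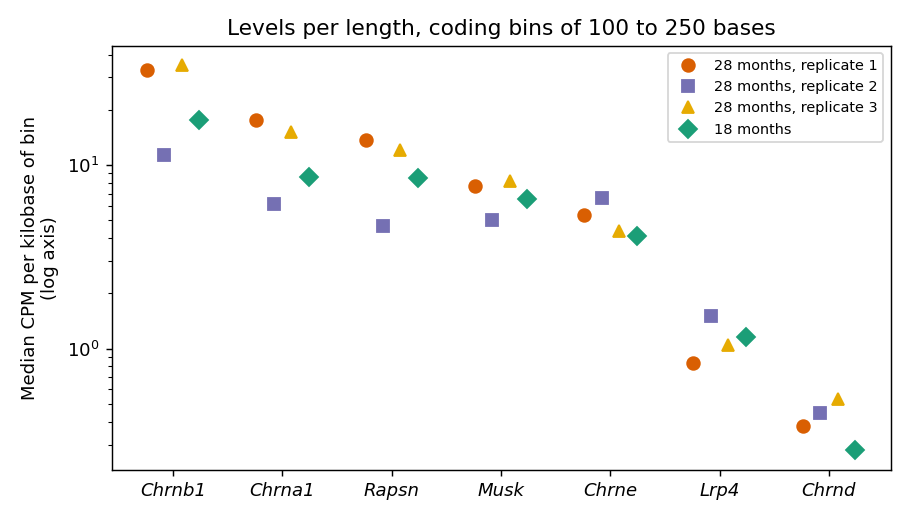
Median CPM per kilobase (y axis, log scale) over coding bins of 100 to 250 bases, for 7 genes in each library, 28 months before 18 months. Chrnb1 is highest in every library, and Lrp4 and Chrnd are the lowest 2 in every library.

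Positions of counts along each gene differed between the ages in most genes. The mean position, in percent of exonic length from the 5′ end, had a median over 5825 genes of 52.6, 51.7 and 52.4% at 28 months and 57.7% at 18 months. Musk differed by more than this, with 46.3, 43.9 and 43.3% at 28 months and 53.1% at 18 months, and Chrnb1 had 53.3, 53.4 and 53.7% at 28 months and 60.5% at 18 months. In 6 of 7 members with at least 100 counts on average, the 18-month value was above all 28-month values, against 84.3% of all genes. Rapsn was the exception, with 50.1, 47.2 and 50.1% at 28 months, all above the 45.6% at 18 months, an order seen in 3.4% of genes. The part of this shift in the bin shares below was not tested, and the labels give RNA integrity only as a minimum for all samples.

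**Figure D4:**
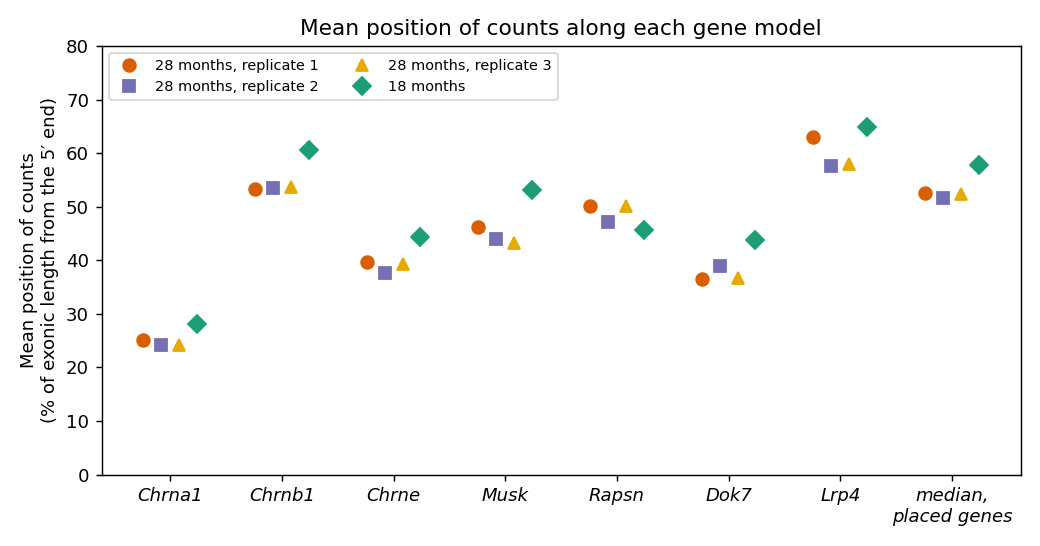
Mean position of counts (y axis, percent of exonic length from the 5′ end) for 7 junction genes and the median over 5825 genes, in each library, 28 months before 18 months. The 18-month library lies above the 28-month libraries in 6 genes and in the median, and below them in Rapsn.

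Exon usage, the share of a gene's counts that falls in each bin, was testable in 7 members with 98 bins. The edgeR test called 0 of 7 genes and 0 of 98 bins, against 3.54% of 11000 genes and 0.366% of 143485 bins. At an unadjusted p under 0.05 the count was 0 bins, and limma diffSplice also called 0 of 7 genes, against 16% of all genes. The smallest unadjusted p among the 98 bins was 0.0739 (edgeR, adjusted p = 1), for bin 11 of Chrne.

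That coding bin of Chrne, chr11:70616955-70617069 on GRCm38, is in both coding transcripts and took 6.28, 7.93 and 5.83% of Chrne counts at 28 months, against 14% at 18 months (exact 95% interval 10.8 to 17.7). All 28-month shares were below the 18-month share, and the log2 difference in use was -1.03. Bins 8 to 12 together, a group chosen after the values were seen, took 22.6, 29.7 and 22.7% at 28 months and 43.9% at 18 months. In Chrnb1, bin 15 (chr11:69794969-69795013, 45 bases) took 3.34, 2.46 and 2.69% at 28 months and 1.41% at 18 months, with a log2 difference in use of 1.04. Without replicate 2, both bins passed, at -1.20 for Chrne (edgeR adjusted p = 0.0359) and 1.08 for Chrnb1 (edgeR adjusted p = 0.0461), in a fit that called 7.23% of all bins. These were 2 of 93 member bins tested there, and 0 of 7 member genes were called in it, against 30.5% of all genes.

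For the other 5 members, the bin with the smallest p likewise lay outside the 28-month range. Choosing a bin by its p makes this likely, so it is not a result about these genes. In Lrp4, bin 41 took 3.47, 2.95 and 3.18% of counts at 28 months and 1.04% at 18 months, on 17, 29 and 14 counts against 8 counts. In Chrna1, the first exon took 2.16, 2.94 and 3.75% at 28 months and 1.43% at 18 months. Bin 13 of Dok7 took 12, 10.3 and 12.6% at 28 months and 7.27% at 18 months, bin 7 of Rapsn 8.09, 7.79 and 10.2% against 5.72%, and bin 3 of Musk 3.53, 3.37 and 2.89% against 1.72%. All 5 were higher at 28 months in each library, and none passed the edgeR test. No share over all genes was computed for bins chosen in this way.

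The last exons of 3 members are given as examples, chosen after the values were seen. They are not a count over all members, and no share over all genes was computed. Each took a smaller share in each 28-month library. The last exon of Chrnb1 took 22, 21.4 and 21% of counts at 28 months and 33.5% at 18 months. That of Chrna1 took 19.9, 19.2 and 19.4% at 28 months and 24.5% at 18 months. The last bin of Lrp4, 2351 bases long, took 26.3, 19.2 and 21.6% at 28 months and 37.7% at 18 months. Not all members were like this. The shares of the last exons of Chrne and Rapsn, and of bin 17 of Dok7, overlapped between the groups. Bin 14 of Dok7, bin 22 of Musk and bin 15 of Chrnd also took smaller shares in each 28-month library. Last-bin shares come from the same counts as the mean positions above, so they are not a separate observation.

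Musk has 23 bins, and of the 7 members its mean position differed most between the 28-month libraries and the 18-month library. Bins 2 to 11, near the 5′ end, took 45.2, 50.4 and 47% of counts at 28 months and 31.9% at 18 months. Bins 20 to 23, at the 3′ end, took 39.7, 36.8 and 31.8% at 28 months and 47% at 18 months. Between them, bins 16 to 19 took 14, 11.7 and 20.5% at 28 months and 19.8% at 18 months, so that replicate 3 was like the 18-month library there.

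**Figure D5:**
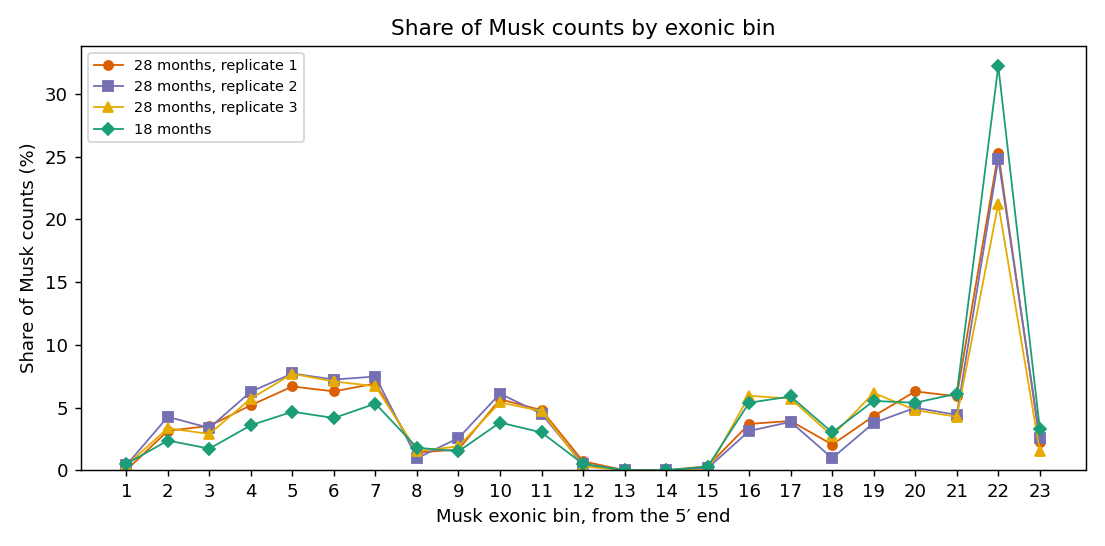
Share of Musk counts (y axis, percent) in each of its 23 exonic bins from the 5′ end (x axis), with a line for each library. The 28-month libraries lie above the 18-month library in most of bins 2 to 11 and below it in bin 22, the bin with the most counts.

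Musk also holds optional coding exons whose use the counts could follow. Bins 9 and 18 are shown in full because each inserts whole codons. Both are in 4 of 7 coding transcripts of GENCODE M21 (GRCm38), and their letters come from its transcripts.
Musk bin 9, chr4:58327326-58327355 (+ strand): aagacagagaacctgagcaggacgctaaag
Musk bin 18, chr4:58356482-58356505 (+ strand): attataaaaaagaaaacataacaa

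Bin 9, of 30 bases or 10 codons, was counted 21, 32 and 25 times at 28 months and 21 times at 18 months. Relative to the mean of the nearest coding bins on each side, its count was 0.263, 0.379 and 0.314 at 28 months and 0.331 at 18 months, so that the groups overlapped. Bin 18, of 24 bases or 8 codons, was counted 26, 12 and 36 times at 28 months and 42 times at 18 months, with ratios of 0.495, 0.253 and 0.462 at 28 months, all below the 0.528 at 18 months. The log2 difference in use was 0.38 for bin 9 and -0.58 for bin 18, and neither passed (edgeR adjusted p = 1 for each). A short bin collects fewer fragments than a long one, so these ratios are not shares of transcripts. Bins 13 and 14 of Musk had 0 counts in all libraries.

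The 3 bins 5, 8 and 9 of Rapsn are also optional in its 3 coding transcripts and were included nearly alike at both ages. Bin 5 stood at 0.695, 0.72 and 0.789 of its neighbours at 28 months and 0.72 at 18 months. Bin 8 stood at 0.881, 0.89 and 1.06 at 28 months and 1 at 18 months, and both bins overlapped between the groups. Bin 9 stood at 0.656, 0.683 and 0.69 at 28 months, all below the 0.73 at 18 months. For bins 8 and 9 the neighbours were taken as bins 7 and 10, which are in all coding transcripts. The order of the groups for bins 8 and 9 depends on that choice. Bins that belong to no coding transcript held few counts: in Chrnb1 they took 0.253, 2.73 and 0.304% of counts at 28 months and 1.07% at 18 months, and in Lrp4 0, 2.24 and 0.909% at 28 months and 3.26% at 18 months. Replicate 2 was the highest 28-month library in both.

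Among 38 other genes of the synapse and its signalling, 37 could be tested and 0 passed by edgeR or DESeq2, with 3 at an unadjusted p under 0.05 by edgeR (4.9% of all genes). Their log2 differences lay above 0 in 20 and below 0 in 17, with a median of 0.04. The named genes did not pass. Lama5, a laminin chain of the synaptic basal lamina, had 17.7, 20.1 and 19.6 CPM at 28 months, against 10.3 CPM at 18 months (log2 0.89 ± 0.27 SE, edgeR adjusted p = 0.859). Cdk5, a kinase known from mouse to act on receptor clusters, had 19.4, 18.4 and 18.6 CPM at 28 months, against 10.4 CPM at 18 months (0.85 ± 0.26), and Lamb2, the laminin beta chain enriched at synapses, had 55.8, 65.4 and 59.1 CPM against 40.1 CPM (0.58 ± 0.27).

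In the other direction, Crk, an adaptor that binds Dok7, had 63.8, 68.4 and 52.7 CPM at 28 months, against 102 CPM at 18 months (log2 -0.73 ± 0.28 SE, edgeR adjusted p = 0.859). Nes, the intermediate filament nestin, had 21.2, 23.6 and 20 CPM at 28 months, against 32.7 CPM at 18 months (-0.60 ± 0.25), and Alg14, a glycosylation gene, had 7.56, 9.62 and 7.64 CPM against 11.2 CPM (-0.44 ± 0.30). For these 6 genes the groups did not overlap, as in 18 of the 37 (9 with all 28-month libraries above and 9 with all below), a share near the 51.8% over all genes. Of the ligand and enzyme partners of the members, Agrn had 4.22, 10.8 and 4.41 CPM at 28 months, against 5.13 CPM at 18 months, with overlapping groups, and Ache, whose product ColQ anchors, had 9.31, 6.73 and 8.12 CPM at 28 months, all above the 6.04 CPM at 18 months (log2 0.42 ± 0.34 SE, edgeR adjusted p = 0.872). Agrn and Ache were named after their values were seen, as partners of Lrp4 and Colq.

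Of 22 genes known to respond to denervation of rodent muscle, all were tested and 0 passed by edgeR or DESeq2, with 1 at an unadjusted p under 0.05 by edgeR (4.9% of all genes). Log2 differences lay above 0 in 11 and below 0 in 11, with a median of 0.01. Runx1, a transcription factor induced by denervation, had 3.53, 1.57 and 3.59 CPM at 28 months, all below the 7.74 CPM at 18 months (log2 -1.42 ± 0.53 SE, edgeR adjusted p = 0.859). Myog, the myogenic factor myogenin, had 1.87, 1.82 and 2.12 CPM at 28 months, against 3.72 CPM at 18 months (-0.94 ± 0.39), and Kcnn3, a calcium-activated potassium channel, 0.809, 0.872 and 0.746 CPM against 1.84 CPM (-1.19 ± 0.48).

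In the other direction, Hdac9, a histone deacetylase, had 5.72, 8.21 and 5.48 CPM at 28 months, all above the 3.69 CPM at 18 months (log2 0.81 ± 0.40 SE, edgeR adjusted p = 0.859). The receptor subunit gene Chrna9 had 3.64, 0.082 and 5.47 CPM at 28 months, against 0.568 CPM at 18 months (2.42 ± 2.07, edgeR adjusted p = 0.877), with replicate 2 below the 18-month library and the others above it. The list as a whole therefore had no shared sign. It does not record which way denervation moves each gene, so the signs do not test for a denervation response.

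Without replicate 2, 12 of the 58 synaptic and denervation genes tested were called (20.7%, against 11.9% of all genes). Among those higher at 28 months were Dtna, Lama5 and Cdk5 of the synaptic genes and Ankrd1, Sln, Mustn1 and Chrna9 of the denervation genes. Lower were Crk, Nes and Nid1 and, of the denervation genes, Runx1, at -1.10 ± 0.22 (SE, edgeR adjusted p = 0.0347). The replicate left out lay on the other side of the 18-month library for several of these. It had 77.5 CPM against 112 CPM for Dtna, 1.96 against 17 for Ankrd1 and 1.45 against 17.8 for Sln. For Mustn1 it had 29.2 against 70.7, and for Nid1 226 against 120. Chrna9 was likewise reversed in replicate 2, while Lama5, Cdk5, Crk, Nes and Runx1 kept their side, as given above. The largest difference among the 12 was that of Chrna9, 3.02 ± 0.44 (SE, edgeR adjusted p = 0.0191).

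Genes of Schwann cells, which cover the nerve terminal and myelinate its axon, were lower in level at 28 months without passing the test. All 12 markers had a log2 difference below 0, with a median of -1.26, and in 11 of 12 all 28-month libraries were below the 18-month library, against 26.4% of all genes. Their summed level was 202, 109 and 165 CPM at 28 months, against 359 CPM at 18 months, and none was at 0. The gap junction gene Gjc3 had 0.749, 0.42 and 0.497 CPM at 28 months, against 2.09 CPM at 18 months (log2 -1.91 ± 0.56 SE, edgeR adjusted p = 0.859). Drp2, a dystrophin-related gene of Schwann cells, had 13.1, 4.43 and 9.67 CPM at 28 months, all below the 26.7 CPM at 18 months (-1.56 ± 0.57). Without replicate 2, 6 of the 12 were called lower, against 4.37% of all genes. Macrophage markers moved as well: all 8 lay above the 18-month library in each 28-month library (25.4% of all genes did), with summed levels of 108, 208 and 194 CPM at 28 months, against 70.6 CPM at 18 months, a median log2 difference of 1.33 and none at 0. The part of the Schwann cell and macrophage differences in the values of the junction genes was not tested.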

How the data were processed

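Thigh muscle RNA was sequenced in 3 libraries at 28 months and 1 at 18 months. The submitters' processing notes name bcl2fastq 1.8.3, TopHat2 2.0.4 and the build GRCm38. The authors deposited raw counts per exonic bin, with no normalization (374286 bins). Which counter, annotation and strand setting served is not given in the sources used here. Bin names have the form used by DEXSeq counting, in which a fragment can count in several bins. The 5 entries that name no gene equalled 3.36 to 5.20% of the entries and were left out.

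Gene symbols matched 97.3% of 41388 gene IDs. A gene's value was its bin sum, and the 15376 units averaging at least 10 counts were tested with edgeR 4.0.16 (quasi-likelihood, TMM, R 4.3.3; 2 residual degrees of freedom, which the 28-month group supplies) and Benjamini-Hochberg adjustment over all units at 0.05, two-sided. Exon usage was tested with diffSpliceDGE on bins of at least 10 counts. Alternatives used DESeq2 1.42.0, limma 3.58.1, other filters, the most counted bin and libraries left out in turn. No libraries were duplicates. The tests were checked on simulated data. Bins were placed with GENCODE M21 where their number equalled its flattened models (16779 of 25309 genes with several bins), which does not prove the placement.

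The members and lists were chosen with earlier results of these data known. Named were all members, for a list without calls the 3 lowest p-values each way, and the bin with the smallest p in each tested member; other genes are marked as chosen later or are those called without replicate 2. Some genes that this rule names are not reported here.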

Additional observations from a re-analysis of the deposited data

How the results depend on the processing

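With all libraries, no junction gene passed under any expression setting tried, and its exon usage count was 0 in every setting. Over all genes the expression count was 0, against 31 with the DESeq2 Wald test and 0 to 1799 with 1 library left out, the highest without 28-month replicate 2. Leaving out 1 library gave 0 to 2 junction genes and 0 to 12 synaptic and denervation genes; all the calls came without replicate 2. Exon usage called 389 genes, against 234 at 30 counts per bin, 1765 with limma voom diffSplice, 206 without first and last bins and 171 to 3250 with 1 library left out (236, 3250 and 171 without replicates 1, 2 and 3). For single genes, 74 of the alternative expression values kept direction and side of the threshold, 5 passed and 3 turned: Chrnd at -0.13 with the most counted bin (0.13 over all bins), and Rapsn at -0.12 without replicate 1 and -0.11 without replicate 3 (0.41 without replicate 2). Those that passed were, without replicate 2, Chrna1 at 0.90 and Chrnb1 at 0.88 and, with the most counted bin, Chrna1 at 0.99, Chrnb1 at 0.65 and Lrp4 at -0.91; the most counted bin without replicate 2 and the divided Colq unit were chosen after seeing the data. For bin use, 45 values kept and 2 passed, both without replicate 2. The cause of these changes was not tested, beyond the smaller spread between the remaining libraries. No paired analysis was possible because the 18-month library carries no replicate number. Counts limit Chrng and the short bins, and the single 18-month library has no replicate check.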
